A study of Craterostigma plantagineum with 12 samples.

Results

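Leaves of the resurrection plant Craterostigma plantagineum can lose nearly all of their water, stay alive in the dry state and become green and active again once watered. The comparison described here sets fully desiccated leaves, at 2% relative water content (RWC, the water in a leaf relative to the fully hydrated leaf), against fresh leaves at 100% RWC, and uses 6 of the 12 leaf libraries of the study. The 3 libraries at 2% RWC came from plants that had dried gradually in their pots to complete desiccation over 15 days. The 3 libraries at 100% RWC came from untreated plants. No genotype, allele or agent differed between the states: all plants had been multiplied by vegetative propagation and grown in the same kind of incubator at 60% relative humidity. Each library is a pool of leaves from 6 to 9 plants, so the spread between libraries is a spread between pools. No watered plants of matching age are among the libraries, and the effects of water content and of days spent drying cannot be told apart. The other 6 libraries are 3 of partly dried leaves at about 60% RWC (3 to 4 days of drying) and 3 of leaves collected after 24 h under water. The 60% RWC libraries are given beside some results, since they show whether a level at 2% RWC was already reached earlier in drying.

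Desiccation tolerance in this plant is known from work on transcripts that accumulate as leaves dry. Abscisic acid (ABA), the hormone of the drought response, is perceived by PYR/PYL receptors, which then hold back type 2C protein phosphatases (PP2C) and so free SnRK2 kinases to act on bZIP transcription factors. Late embryogenesis abundant (LEA) proteins, among them the dehydrins, and early light-induced proteins (ELIPs), with DSP-22 as a member known from this plant, are thought to shield membranes, proteins and thylakoids in the dry state. The leaf also changes its sugars: the C8 sugar octulose that fresh leaves hold gives way to sucrose, and transketolases have been linked to the metabolism of octulose.

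Reads were counted on 48045 contigs, assembled pieces of transcripts. Several contigs can belong to 1 gene, so the numbers given are of contigs, which carry the names of the deposited annotation. Levels are given as RPKM, reads scaled to contig length and to the library total, in the order of replicates 1, 2 and 3. The 2% RWC libraries held 18160496, 21271288 and 14787562 reads, and the fresh libraries 17362965, 16880893 and 14784251. The 2% libraries were close to each other, with Pearson's r of log2-scaled counts across contigs (which are not independent replicates) of 0.968 to 0.977 and a common biological coefficient of variation of 0.135. The fresh libraries stood apart from one another, with r of 0.829 to 0.863 and a coefficient of 0.521, and 2% and fresh libraries correlated at 0.517 to 0.588. Fresh replicate 1 was above the other fresh libraries for many stress and ABA transcripts, and fresh replicate 2 was far below them for a group of morning clock transcripts.

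Leaf identity was checked on markers. The Rubisco small chain (Cp_V2_contig_63), the photosynthetic carbon-fixing enzyme's small subunit, was the contig at the highest level in fresh leaves. It stood at 986, 864 and 830 RPKM in the 2% libraries and at 13800, 13500 and 19800 RPKM in the fresh libraries (log2 fold -3.95, SE 0.29). The groups did not overlap, as in 62.7% of all tested contigs, and the transcript was still present at a high level in dry leaves. Calls of higher and lower, here and below, use edgeR's quasi-likelihood test at a Benjamini-Hochberg adjusted p below 0.05. Over all contigs tested 21.6% were higher and 29.9% lower at 2% RWC. Of 63 tested mesophyll markers, 2 were higher (4 without fresh replicate 3) and 51 lower at 2% RWC. Of 34 guard cell markers 3 were higher and 19 lower (8 to 11 without 1 library of 2% RWC). Of 116 epidermis markers 15 were higher (7 or 8 without 2% replicate 1 or 2) and 67 lower. Of 83 vascular markers 9 were higher (14 without fresh replicate 1) and 45 lower, and of 37 flower markers 4 (8 without fresh replicate 3) and 16. Of 14 root markers, most of them described as ROOT HAIR DEFECTIVE 3, a protein that is not particular to roots, 10 were higher and 0 lower, with 4 to 6 higher without 1 library of 2% RWC. The mesophyll list took 0.512, 0.458 and 0.346% of reads in the 2% libraries, against 3.1, 3.93 and 2.4% in the fresh libraries, the guard cell list on average 0.00823% at 2% RWC and 0.0363% in fresh leaves, and the root list 0.029% at 2% RWC and 0.0185% in fresh leaves. The part of such marker differences in the results below was not tested. In RNA of whole leaves, fewer cells of a type and less RNA per cell cannot be told apart, and a higher share of one transcript lowers the share of the others.

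Most tested contigs differed between the 2 states. Of 44267 contigs with enough reads to test, 9580 (21.6%) were higher and 13231 (29.9%) lower at 2% RWC, 51.5% in either direction, at an adjusted p below 0.05 (edgeR's quasi-likelihood test, Benjamini-Hochberg adjustment). Decreases were the larger: 5256 contigs were lower by at least 8-fold, and 1335 were higher by that much. The median log2 fold was 1.57 among the contigs called higher, -2.52 among those called lower and -0.18 over all contigs tested. In 27736 of the tested contigs (62.7%) the libraries of the 2 states did not overlap. These values are the background for the marker lists above, for each list below and for each statement that the states did not overlap. Every contig named below as higher or lower than in fresh leaves passed the same test, with adjusted p of at most 0.0439. Calls against 60% RWC come from a fit of all 12 libraries, so the wide spread of the fresh libraries enters them. That fit called 9089 contigs higher and 11617 lower, and a fit of only the 2% and 60% RWC libraries 13523 and 14104. A contig not called against 60% RWC can therefore still differ.

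**Figure D1:**
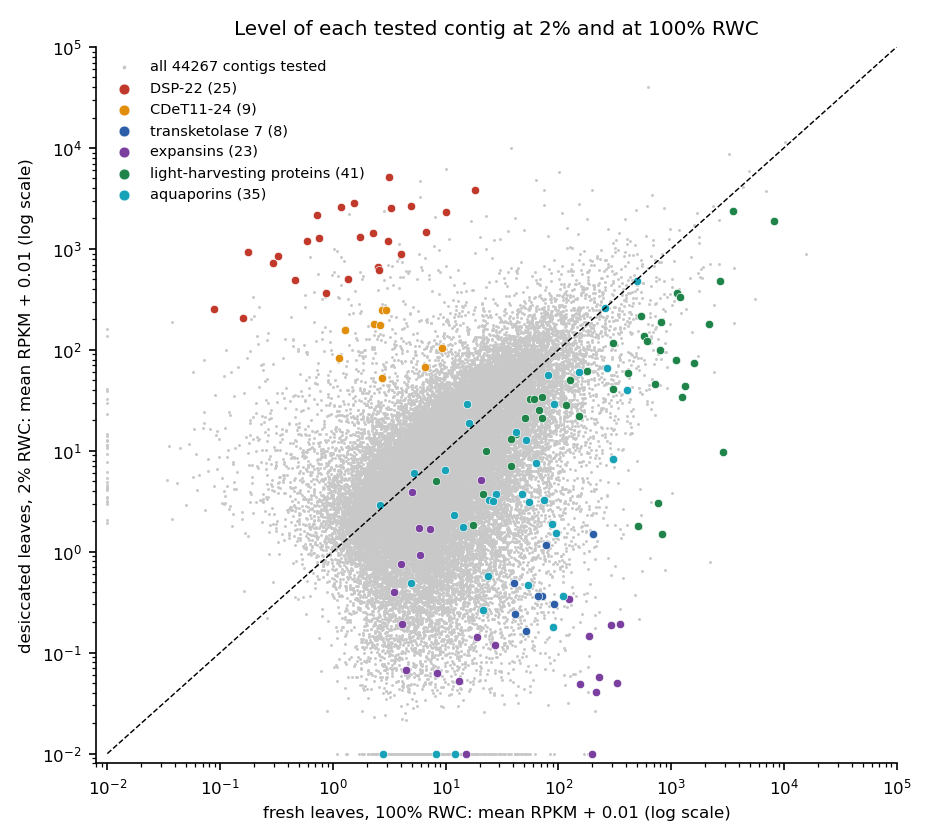
Mean RPKM + 0.01 of each of the 44267 tested contigs in fresh leaves (x axis) and in leaves at 2% RWC (y axis), both on log scales, with the dashed line at equal levels. The coloured DSP-22 and CDeT11-24 contigs lie above the line, and the transketolase 7, expansin, light-harvesting and most aquaporin contigs below it. Points on the lower edge (2% RWC) or left edge (fresh) had no read in that state.

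Some contigs were switched nearly fully on or off. In 31 contigs no read was found in the fresh libraries while each 2% library had at least 10 reads, and in 328 contigs it was the reverse. Of these, 12 of the 31 and 46 of the 328 have no description, where 6181 of all 44267 tested contigs have none. For a state without any read the fold given is a lower bound, computed with 3 reads in each of its libraries (0.141 to 0.203 CPM, reads scaled to the library total). Such bounds, and intervals of ratios, cover counting error only. The sodium/hydrogen exchanger 4 contig Cp_V2_contig_47446, of a family that moves sodium across membranes in exchange for protons, stood at 38.6, 38.2 and 41.4 RPKM in the 2% libraries and had no read in the fresh libraries, at least 79.9-fold higher. A contig described as RNA helicase ddx56 (Cp_V2_contig_47878), at 169, 141 and 97 RPKM in the 2% libraries, was at least 315-fold higher. That name is uncertain, since its best hit is named RACK1C and its Arabidopsis annotation is cotton fiber protein. In the other direction, a 2-oxoglutarate-dependent dioxygenase AOP1 contig (Cp_V2_contig_1295) had no read in the 2% libraries and 314, 96.6 and 98.7 RPKM in the fresh libraries, at least 423-fold lower. A bark storage protein A contig (Cp_V2_contig_1650) was at least 359-fold lower, although its fresh libraries ranged widely, at 95.3, 151 and 7.04 RPKM.

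Transcripts of LEA and other desiccation proteins took a much larger share of reads in dry leaves. Of 160 tested contigs that name Craterostigma in their description or best hit, 84 were higher and 48 lower, with a median log2 fold of 1.78, and they took 5.59 ± 0.679% of reads at 2% RWC, against 0.725 ± 0.212% in fresh leaves (SD, n = 3 each). Of 115 tested LEA, dehydrin and desiccation-related contigs, 90 were higher and 11 lower, median 4.48 (6.22 without fresh replicate 1), with 5.97, 6.45 and 5.31% of reads in the 2% libraries and 0.443, 0.213 and 0.343% in the fresh libraries. The contig at the highest level, a dessication-related protein (Cp_V2_contig_4317, spelled so in the annotation), stood at 38200, 40400 and 42300 RPKM in the 2% libraries and at 1200, 238 and 451 RPKM in the fresh libraries. It averaged 63300 RPKM at 60% RWC (SD 8170, against SD 2030 at 2% RWC). The 2% against 60% RWC comparison was not called in the fit of all 12 libraries, which does not show that the levels were equal. The 2% libraries agreed closely while fresh replicate 1 was several times above the other fresh libraries, and the log2 fold of 6.12 (SE 0.77) was 7.13 without that library. A second contig of that description (Cp_V2_contig_2915) stood at 4000, 4040 and 3400 RPKM at 2% RWC, against 176, 18.6 and 30 RPKM in fresh leaves, again with fresh replicate 1 the highest of the fresh libraries.

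Most contigs of DSP-22, PCC13-62 and Lea14 were higher at 2% RWC than in fresh leaves and than at 60% RWC. DSP-22 is a chloroplast protein of the ELIP family, PCC13-62 a desiccation-related protein first described in this species, and Lea14 a LEA protein. All 25 contigs whose best hit is DSP-22 were higher at 2% than at 100% RWC, by log2 folds of 7.84 to 12.38, and together they took 1.9, 2.14 and 1.16% of reads in the 2% libraries, against 0.00513, 0.00209 and 0.00312% in the fresh libraries. At 60% RWC they took 0.535 ± 0.0643% of reads, and 18 of the 25 were higher at 2% than at 60% RWC and 0 lower, where 19.5% of all contigs tested in that comparison were higher and 25% lower. The most abundant (Cp_V2_contig_36065) stood at 5660, 6390 and 3460 RPKM at 2% RWC, against 4.98, 1.32 and 3.17 RPKM in fresh leaves, but with 21.1% of its reads shared with other contigs this level is uncertain. Another (Cp_V2_contig_43829) had 3 reads in the fresh libraries and was higher by a ratio of 5470 (95% counting interval 1870 to 26500). Replicate 3 was the lowest of the 2% libraries for all 25 contigs, without overlap with the fresh libraries, where 62.7% of all tested contigs had no overlap. Of 6 PCC13-62 contigs, all were higher than in fresh leaves and 4 were higher than at 60% RWC. The PCC13-62 contig Cp_V2_contig_36163 stood at 6770, 6900 and 4840 RPKM at 2% RWC, against 6.82, 11.4 and 11.8 RPKM in fresh leaves (log2 fold 9.47, SE 0.38) and 4210 RPKM on average at 60% RWC. Of 6 Lea14 contigs 4 were higher than in fresh leaves and the same count higher than at 60% RWC, and Lea14 Cp_V2_contig_22977 stood at 11200, 11000 and 8140 RPKM at 2% RWC, against 46.6, 40 and 27.9 RPKM in fresh leaves (log2 fold 8.23, SE 0.41). All comparisons with 60% RWC share the 2% libraries with the comparison with fresh leaves.

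**Figure D2:**
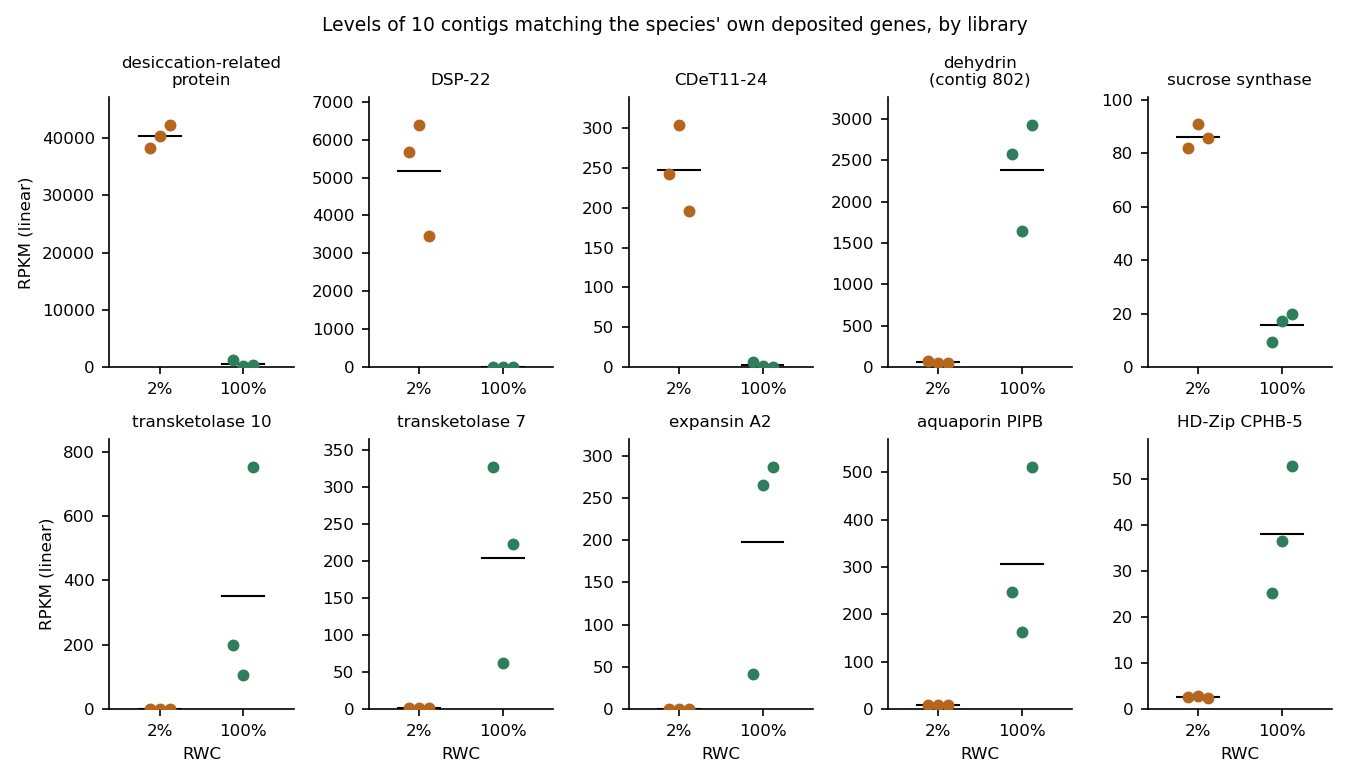
RPKM of each library (points, linear axes from 0) and the mean of each state (bars) for 10 contigs matching the species' own genes, with the 2% RWC libraries left of the fresh ones. The desiccation-related protein (Cp_V2_contig_4317), DSP-22, CDeT11-24 and sucrose synthase are higher in all 3 libraries at 2% RWC, and dehydrin Cp_V2_contig_802, transketolases 10 and 7, expansin A2, aquaporin PIPB and HD-Zip CPHB-5 are lower in all 3.

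Another set of the species' drying transcripts was above fresh leaves at 2% RWC but had been higher still at 60% RWC. All 9 contigs of CDeT11-24, a hydrophilic desiccation protein, were higher at 2% RWC than in fresh leaves, with a median log2 fold of 6.33 (8.02 without fresh replicate 1), and all 9 were lower than at 60% RWC. The CDeT11-24 contig Cp_V2_contig_16566 (chosen after its values were seen) stood at 242, 304 and 196 RPKM at 2% RWC, against 6.67, 1.38 and 0.762 RPKM in fresh leaves and 1340 RPKM on average at 60% RWC. Fresh replicate 1 was again the highest of the fresh libraries, without overlap between the states. Of 15 contigs described as embryonic protein DC-8, a LEA-type protein named from carrot embryos, 13 were higher than in fresh leaves and 0 lower, median 4.35 (6.48 without fresh replicate 1), while 9 were lower than at 60% RWC. All 4 contigs of early dehydration-responsive 1 were higher, median 3.52, and all 4 were lower than at 60% RWC by a median log2 fold of -4.12. The most abundant (Cp_V2_contig_27346, chosen after its values were seen) stood at 291, 322 and 125 RPKM at 2% RWC, against 27.1, 15.6 and 21.7 RPKM in fresh leaves and 4470 RPKM on average at 60% RWC.

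The 7 dehydrins that match the species' own sequences did not move together. Dehydrins are hydrophilic LEA proteins. Of the 7, 6 were higher and 1 was lower at 2% RWC than in fresh leaves, and 5 were lower than at 60% RWC. Dehydrin DHN3 (Cp_V2_contig_22485) stood at 5650, 6290 and 5280 RPKM at 2% RWC, against 167, 65.4 and 73.5 RPKM in fresh leaves and 12000 RPKM on average at 60% RWC. Another dehydrin of the species (Cp_V2_contig_3217) stood at 2510, 2740 and 2870 RPKM, against 68.5, 46.6 and 109 RPKM in fresh leaves. Both were higher in each 2% library than in any fresh library. The dehydrin that was lower (Cp_V2_contig_802) stood at 69.1, 55 and 54.8 RPKM at 2% RWC, against 2570, 1650 and 2930 RPKM in fresh leaves (log2 fold -5.15, SE 0.37) and 2950 RPKM on average at 60% RWC. Here the 2% libraries were far under every fresh library. All 3 class or group 4 LEA contigs were higher, and the LEA 6-like contig Cp_V2_contig_45054, whose best hit is a class 4 LEA protein of the species, stood at 2140, 2290 and 2290 RPKM at 2% RWC, against 1.32, 1.94 and 0.887 RPKM in fresh leaves (log2 fold 10.84, SE 0.38). A LEA contig of another kind, described as At1g64065-like (Cp_V2_contig_19809), had no read at 2% RWC and 27.7, 23.6 and 25.4 RPKM in fresh leaves. That contig was lower, as were 10 others of the LEA list.

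**Figure D3:**
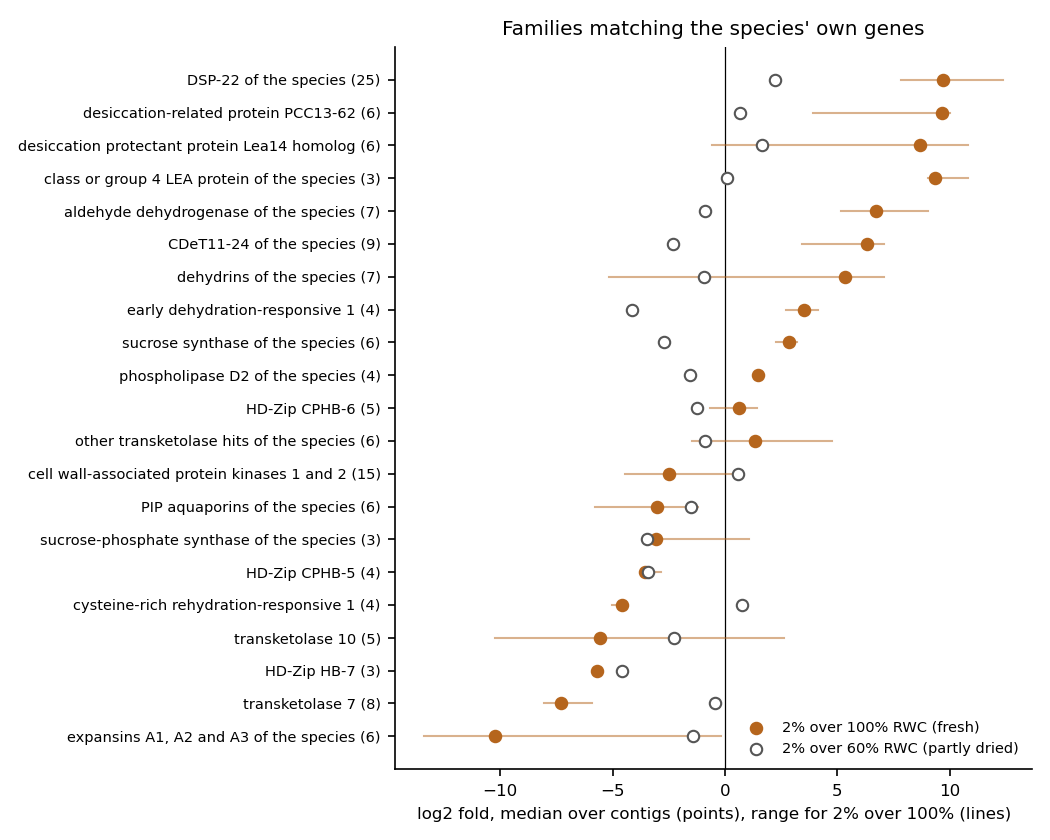
Median log2 fold over the contigs of each family of the species' own genes, for 2% over 100% RWC (filled points, with the range over contigs as a line) and for 2% over 60% RWC (open points), number of tested contigs in brackets. DSP-22, PCC13-62 and Lea14 lie right of zero for both, whereas CDeT11-24, early dehydration-responsive 1, sucrose synthase and phospholipase D2 lie right of zero against fresh leaves and left of it against 60% RWC, and transketolase 7 and expansins lie left of it against fresh leaves.

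ELIP contigs divided by their best hit. Of 30 tested ELIP contigs 25 were higher and 4 lower, and the 25 are the contigs whose best hit is DSP-22. Of the 5 with a best hit in another plant, 4 were lower and 1 was not called. Cp_V2_contig_21546, described as an ELIP and matching DSP-22, stood at 3190, 3540 and 1860 RPKM at 2% RWC, against 2.36, 1.53 and 0.72 RPKM in fresh leaves (log2 fold 11.01, SE 0.68, and 11.61 without fresh replicate 1), a level that is uncertain since 16.9% of its reads are shared with other contigs. An ELIP 1 contig with a hit in Eucalyptus (Cp_V2_contig_12578) stood at 0.445, 0.634 and 0 RPKM at 2% RWC, against 38, 3.03 and 14.2 RPKM in fresh leaves (log2 fold -5.41, SE 1.22, with -4.18 without fresh replicate 1 and -6.06 without 2% replicate 2). Both separated the states without overlap, in opposite directions.

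Enzymes that remove aldehydes and peroxides were divided between the states. Aldehyde dehydrogenases oxidise reactive aldehydes formed from damaged lipids, and all 7 contigs of the species' own enzyme were higher at 2% RWC, by log2 folds with a median of 6.72 (7.54 without fresh replicate 3, and 6.17 with 1 contig that has no fresh read set at its bound). The contig Cp_V2_contig_30804 (chosen after its values were seen) stood at 103, 109 and 73.5 RPKM, against 1.17, 2.45 and 1.57 RPKM in fresh leaves. Over all aldehyde dehydrogenases and aldo-keto reductases 24 of 55 were higher and 19 lower. Of 110 contigs of the ascorbate and glutathione cycle 26 were higher and 42 lower, and of 46 class III peroxidases 5 (3 without 2% replicate 2 or 3) and 26. A glutathione peroxidase (Cp_V2_contig_37067) stood at 72.8, 69.2 and 67 RPKM, against 1.69, 1.04 and 1.19 RPKM in fresh leaves (log2 fold 5.89, SE 0.33). GDP-mannose 3,5-epimerase 1 (Cp_V2_contig_672), an enzyme of ascorbate synthesis, was higher too, at 321, 307 and 308 RPKM against 70.8, 56.6 and 152 RPKM in fresh leaves (log2 fold 1.92, SE 0.42, and 2.55 without fresh replicate 3). Peroxidase 42 (Cp_V2_contig_1597) was lower, at 11.8, 13.1 and 12.5 RPKM against 186, 207 and 282 RPKM in fresh leaves (log2 fold -3.98, SE 0.27). Catalase isozyme 3 (Cp_V2_contig_1190), which breaks down hydrogen peroxide, was not called, at 740, 680 and 847 RPKM against 1070, 501 and 1600 RPKM in fresh leaves, but was called lower without fresh replicate 2 (log2 fold -0.66).

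Transketolases differed by isoform. All 8 contigs that match transketolase 7 of the species were lower at 2% RWC, median log2 fold -7.29, and of 5 that match transketolase 10, 1 was higher and 3 were lower. Of 6 other transketolase contigs 3 were higher and 1 lower, with 5 higher without fresh replicate 3. The transketolase 10 contig Cp_V2_contig_951 stood at 0.453, 0.155 and 0.167 RPKM at 2% RWC, against 198, 107 and 753 RPKM in fresh leaves (log2 fold -10.22, SE 1.12, with -8.95 without fresh replicate 3 and -10.83 without 2% replicate 1) and 7.78 RPKM on average at 60% RWC. The transketolase 7 contig Cp_V2_contig_1819 (chosen after its values were seen) stood at 1.89, 1.03 and 1.57 RPKM, against 327, 62.4 and 222 RPKM in fresh leaves (log2 fold -6.97, SE 0.80). For both, the highest 2% library was far under the lowest fresh library. The chloroplast transketolase at the highest level (Cp_V2_contig_1735), an enzyme of the Calvin cycle and the pentose phosphate pathway, stood at 889, 871 and 808 RPKM, against 506, 469 and 1020 RPKM in fresh leaves, and was not called, but was called higher without fresh replicate 3 (log2 fold 1.08). Over all 61 contigs of transketolases, transaldolases and the pentose phosphate pathway 23 were higher and 17 lower.

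Sucrose synthase, which makes and cleaves sucrose, was above fresh leaves. Of 6 tested contigs of the species' sucrose synthase 5 were higher, median log2 fold 2.83 (4.09 without fresh replicate 1), and all 6 were lower than at 60% RWC. The contig Cp_V2_contig_16706 (chosen after its values were seen) stood at 81.9, 91 and 85.6 RPKM at 2% RWC, against 9.37, 17.4 and 20 RPKM in fresh leaves and 166 RPKM on average at 60% RWC. Sucrose-phosphate synthase, the main enzyme of sucrose synthesis, had 1 contig higher and 2 lower of 3 tested, with 0 lower without any 1 library of 2% RWC. The higher one (Cp_V2_contig_4687) stood at 110, 116 and 108 RPKM, against 51.9, 42.3 and 84.6 RPKM in fresh leaves (log2 fold 1.08, SE 0.32). Its adjusted p (Benjamini-Hochberg, edgeR's quasi-likelihood test) was 0.0282, and leaving out fresh replicate 1 or any 1 library of 2% RWC ended the call. Invertases, which split sucrose, had 11 higher and 13 lower of 34: an insoluble invertase (Cp_V2_contig_46121) stood at 11.6, 11.2 and 12.2 RPKM against 0.13, 0 and 0 RPKM in fresh leaves, and a vacuolar invertase (Cp_V2_contig_10083) at 0.694, 0.237 and 0 RPKM against 35.1, 20.4 and 62 RPKM.

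Raffinose family enzymes held both strongly higher and strongly lower members. These enzymes add galactose to sucrose, with galactinol synthase making the galactose donor and stachyose synthase lengthening raffinose. Of 111 contigs 26 were higher and 64 lower, median log2 fold -2.96 (-2.80 with the 8 contigs that lack reads in a state set at their bound). The list took 0.626, 0.602 and 0.639% of reads in the 2% libraries, against 0.631, 0.426 and 1.13% in the fresh libraries. These shares overlapped between the states, with fresh replicate 3 the highest. A galactinol-sucrose galactosyltransferase 2 contig (Cp_V2_contig_45181) stood at 131, 120 and 124 RPKM, against 0, 0.615 and 0.14 RPKM in fresh leaves (log2 fold 9.08, SE 0.69, and 10.75 without fresh replicate 2). A galactosyltransferase 6 contig (Cp_V2_contig_11790) was without reads in the 2% libraries and stood at 36.9, 14.5 and 45.8 RPKM in fresh leaves, at least 70.9-fold lower. Under the same 2 names, 13 of 36 contigs described as number 2 were higher and 19 lower, and 4 of 21 described as number 6 were higher (2 without 2% replicate 1 or 2) and 17 lower. Galactinol synthase 1 had 0 higher and 5 lower of 9, with 3 lower when fresh replicate 3 or any 1 library of 2% RWC was left out, whereas galactinol synthase 2 had 3 higher and 0 lower of 4 (0 or 1 higher without fresh replicate 3 or any 1 library of 2% RWC). The most abundant galactinol synthase 1 (Cp_V2_contig_423) was not called (except, as higher, in the fit of all 12 libraries), at 1350, 1270 and 2050 RPKM against 1130, 1100 and 1320 RPKM in fresh leaves. Stachyose synthase had 3 higher and 1 lower of 10, and 9 higher without fresh replicate 1.

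Starch and glycolysis lists were called at shares near those over all contigs, with some large single changes. Of 94 starch contigs 22 were higher and 24 lower (23.4 and 25.5%). Without 1 library of 2% RWC 9 to 11 starch contigs were higher, and without 2% replicate 1 or 3 there were 15 or 13 lower. Of 161 glycolysis contigs 30 were higher and 47 lower (18.6 and 29.2%). Over all contigs tested 21.6% were higher and 29.9% lower. Beta-amylase 1 (Cp_V2_contig_5071), which breaks starch down to maltose, stood at 569, 553 and 642 RPKM at 2% RWC, against 183, 79.4 and 278 RPKM in fresh leaves (log2 fold 1.87, SE 0.49), a call lost without 2% replicate 2 or 3. A second beta-amylase 1-like contig (Cp_V2_contig_28848) stood at 133, 113 and 138 RPKM, against 0.493, 0.507 and 0.289 RPKM in fresh leaves (log2 fold 8.38, SE 0.33). The large subunit 3 of ADP-glucose pyrophosphorylase (Cp_V2_contig_1078), the enzyme that commits glucose to starch, was lower, at 3.21, 2.15 and 2.62 RPKM against 127, 97.4 and 208 RPKM in fresh leaves. A cytosolic glyceraldehyde-3-phosphate dehydrogenase of glycolysis (Cp_V2_contig_19234) was higher in every 2% library, at 1110, 1090 and 970 RPKM, against 6.02, 9.58 and 7.93 RPKM in fresh leaves (log2 fold 7.28, SE 0.28). The chloroplast enzyme of the same reaction (Cp_V2_contig_435), part of the Calvin cycle, ran the other way, at 98.9, 81.9 and 79.9 RPKM against 1780, 1180 and 2240 RPKM in fresh leaves (log2 fold -4.15, SE 0.36). Of 45 trehalose enzymes 13 were higher and 21 lower, 8 and 13 without 2% replicate 2.

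Most contigs of photosynthesis were lower in dry leaves. Of 41 light-harvesting contigs 0 were higher and 34 lower, median log2 fold -1.89, of 83 contigs of Rubisco and the Calvin cycle 4 and 55, of 139 photosystem and electron transport contigs 14 (8 or 9 without 2% replicate 2 or 3) and 92, of 54 photorespiration contigs 6 and 32, and of 77 chlorophyll synthesis contigs 5 (3 without 2% replicate 2 or 3) and 46 (28 or 29 lower without 1 library of 2% RWC). The Calvin cycle list took 0.478, 0.414 and 0.426% of reads in the 2% libraries, against 2.83, 1.95 and 3.99% in the fresh libraries. Light-harvesting proteins took 0.436, 0.39 and 0.28%, against 2.06, 3.03 and 0.898%, and fresh replicate 3 was the lowest of the fresh libraries for them. The light-harvesting contig at the highest level in fresh leaves (Cp_V2_contig_159) stood at 2260, 2040 and 1340 RPKM, against 8630, 13600 and 2250 RPKM in fresh leaves. The states overlapped there, and its call (log2 fold -1.89, SE 0.60) ended when fresh replicate 1 or 2 or any 1 library of 2% RWC was left out. The chlorophyll a-b binding protein 21 contig Cp_V2_contig_5361 did not overlap, at 1.93, 0.722 and 1.78 RPKM against 927, 1450 and 122 RPKM in fresh leaves (log2 fold -8.92, SE 1.10).

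The levels of single photosynthesis contigs in dry leaves ranged from very low to moderate. A chloroplast carbonic anhydrase-like contig (Cp_V2_contig_29), of the enzymes that interconvert carbon dioxide and bicarbonate, stood at 0.669, 0.734 and 0.528 RPKM at 2% RWC, against 893, 475 and 1280 RPKM in fresh leaves (log2 fold -10.24, SE 0.61). Rubisco activase, which frees Rubisco of bound inhibitors, had all 11 contigs lower, and the most abundant (Cp_V2_contig_616) stood at 345, 287 and 330 RPKM, against 5530, 2110 and 8880 RPKM in fresh leaves. The magnesium chelatase subunit ChlH (Cp_V2_contig_2912), which starts the chlorophyll branch, stood at 11.5, 9.56 and 7.2 RPKM, against 201, 165 and 362 RPKM. These contigs separated the states without overlap. The exceptions in the photosystem list included a ferredoxin, root R-B2-like (Cp_V2_contig_12595), an electron carrier whose name points to the non-green type, at 233, 218 and 274 RPKM against 2.06, 1.86 and 1.41 RPKM in fresh leaves (log2 fold 7.26, SE 0.32). Pheophytinase (Cp_V2_contig_37325) of chlorophyll breakdown was higher, at 37, 38.5 and 30.5 RPKM against 3.49, 3.95 and 1.43 RPKM. Chlorophyllase-2 (Cp_V2_contig_1500) was lower, at 2.05, 1.42 and 1.57 RPKM against 336, 36.3 and 13.1 RPKM, with fresh replicate 1 far above the other fresh libraries (log2 fold -6.18, and -3.53 without it). Contigs annotated as chloroplast-encoded, some of which are also in the photosystem list, were not mostly lower: 17 of 63 were higher and 7 lower, median 0.29, with 11 higher without 2% replicate 2 and 3 lower without 2% replicate 1 or 3. Cytochrome f of the thylakoid electron chain (Cp_V2_contig_178), their member with the most reads, was not called, at 289, 343 and 346 RPKM against 453, 471 and 551 RPKM in fresh leaves.

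**Figure D4:**
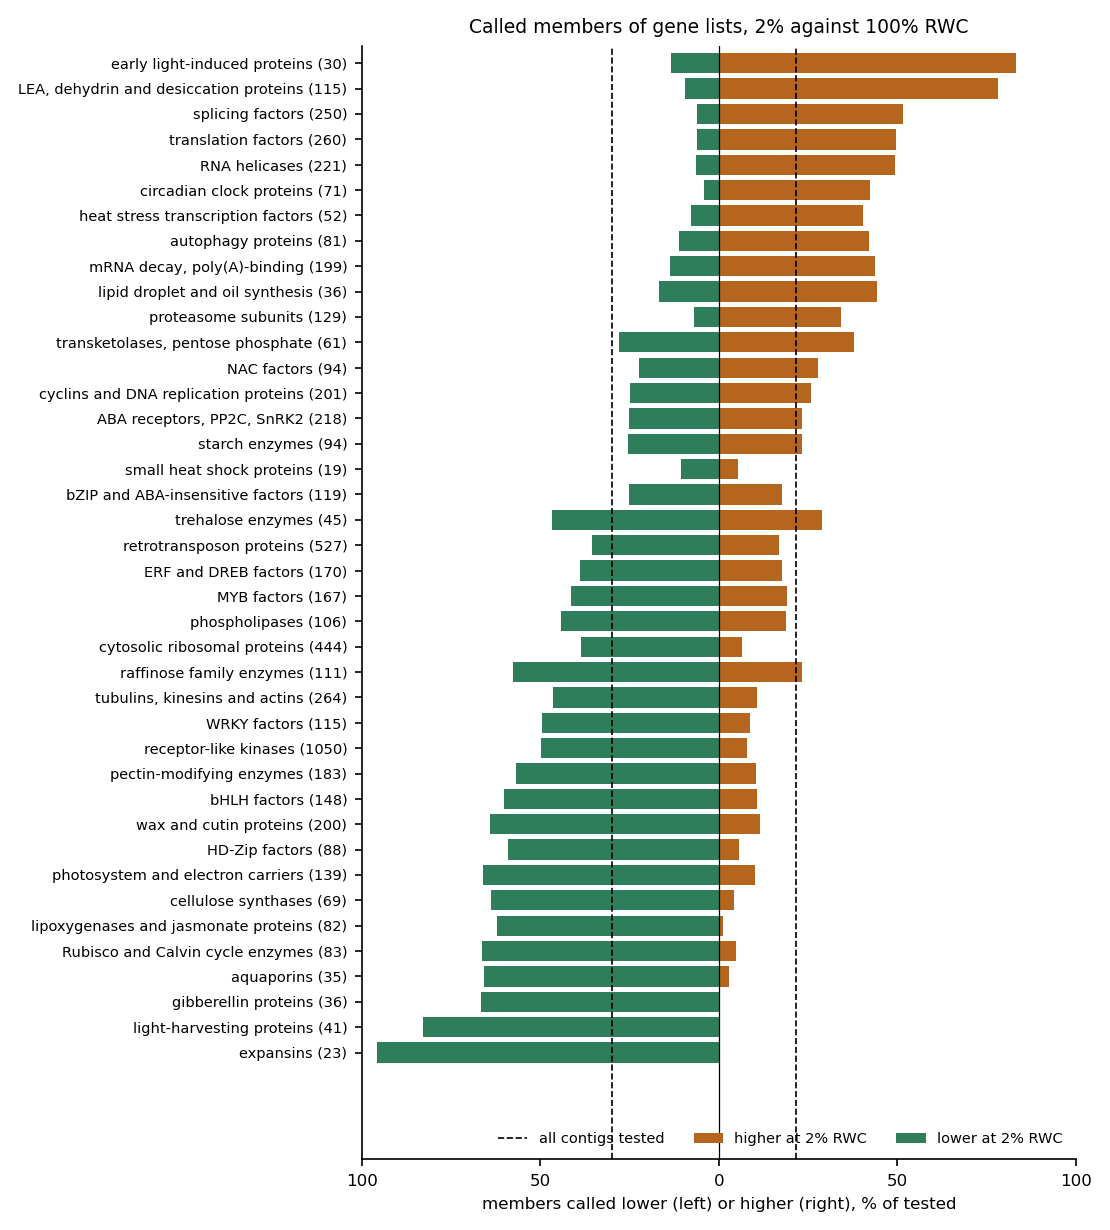
Share of the tested contigs of each list that was higher (right) or lower (left) at 2% than at 100% RWC, in percent of those tested, whose number is in brackets. Dashed lines mark the shares over all contigs (21.6% higher, 29.9% lower): ELIPs, LEA proteins, splicing factors, translation factors and RNA helicases reach furthest right, and expansins and light-harvesting proteins furthest left.

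The ABA signalling chain was rearranged member by member, with list totals near the background. Of 218 contigs of ABA receptors, PP2C phosphatases, SnRK2 kinases and related proteins 51 were higher and 55 lower, median log2 fold -0.04, and 31 to 36 were lower without 1 library of 2% RWC. Among the receptors, all 5 tested PYL4 contigs were lower and 2 of 3 PYL9 contigs were higher and 1 lower. The most abundant PYL4 contig (Cp_V2_contig_12318, chosen after its values were seen) stood at 7.69, 6.06 and 5.99 RPKM at 2% RWC, against 41.7, 112 and 85 RPKM in fresh leaves (log2 fold -3.36, SE 0.35). For another (Cp_V2_contig_6998) the 2% libraries held no read, against 12.4, 24.7 and 3.96 RPKM in fresh leaves, at least 62.0-fold lower. The most abundant PYL9 contig (Cp_V2_contig_13497, also chosen after its values were seen) stood at 68.7, 64.3 and 70.6 RPKM, against 5.07, 23.2 and 6.47 RPKM in fresh leaves (log2 fold 2.82, SE 0.54) and 4.92 RPKM on average at 60% RWC.

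Among the phosphatases that hold the chain back, PP2C 51 had 5 of 9 contigs higher, PP2C 50 had 8 of 11 and PP2C 16 had 11 of 19, with none lower, while PP2C 37 had 0 higher and 8 lower of 15. Without 1 library of 2% RWC the PP2C 51 count was 3, that of PP2C 16 was 5 to 7 and that of PP2C 37 was 5 without 2% replicate 1 or 3, while 3 contigs of PP2C 37 were higher without fresh replicate 1. PP2C 51 (Cp_V2_contig_39930) stood at 642, 585 and 636 RPKM at 2% RWC, against 6.68, 0.719 and 0.615 RPKM in fresh leaves (log2 fold 7.94, SE 1.21, and 10.16 without fresh replicate 1, which was far above the others). PP2C 50 was lower at 2% than at 60% RWC in 10 of 11 contigs and PP2C 37 in 15 of 15. All 6 tested contigs of the SnRK2 calcium sensor, which restrains SnRK2 kinases in Arabidopsis, were higher, median 3.45, and all 3 tested contigs of the kinase SRK2E, the SnRK2 known for stomatal closure in Arabidopsis, were lower, median -2.39 (-1.75 without fresh replicate 3). An ABA 8'-hydroxylase 1-like contig (Cp_V2_contig_47292), of the enzyme that inactivates ABA, stood at 34.5, 30.8 and 24 RPKM at 2% RWC, against 0.0862, 0.576 and 0.101 RPKM in fresh leaves (log2 fold 7.06, SE 0.64, and 8.39 without fresh replicate 2). Among the bZIP factors downstream, 21 of 119 were higher and 30 lower, median log2 fold -0.08. These shares of 17.6 and 25.2% are near the 21.6 and 29.9% over all contigs tested. The called bZIP contig with the highest log2 fold, ABSCISIC ACID-INSENSITIVE 5-like protein 2 (Cp_V2_contig_47685), stood at 19.7, 19.4 and 25.1 RPKM, against 0.34, 0.175 and 0.2 RPKM (log2 fold 6.54, SE 0.41).

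Homeodomain-leucine zipper (HD-Zip) factors were lower as a family. Several were first isolated from this species and named CPHB or HB. Of 88 contigs 5 were higher (8 without fresh replicate 1 and 3 without any 1 library of 2% RWC) and 52 lower, median log2 fold -1.99. All 8 ATHB-6 contigs were lower, 1 of which matches CPHB-4 of the species, as were all 4 CPHB-5 contigs and all 3 HB-7 contigs. CPHB-5 contig Cp_V2_contig_6163 (chosen after its values were seen) stood at 2.58, 2.87 and 2.51 RPKM, against 25.1, 36.4 and 52.7 RPKM in fresh leaves and 40.2 RPKM on average at 60% RWC. Of the 5 CPHB-6 contigs 0 were higher and 0 lower, but 4 were higher without fresh replicate 1. The most abundant of them (Cp_V2_contig_3837) stood at 149, 133 and 121 RPKM, against 106, 36.1 and 19 RPKM in fresh leaves, with each 2% library above every fresh library (log2 fold 1.44, SE 0.64). Without fresh replicate 1 its log2 fold was 2.61 and it was called, as it was with DESeq2, with voom weights and in the fit of all 12 libraries. Epidermal HD-Zip factors were lower as well: MERISTEM L1 in 9 of 10 contigs and GLABRA 2 in 3 of 3.

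Drought, heat and stress factors of other families were higher in part. Of 52 heat stress factor (HSF) contigs 21 were higher and 4 lower (9 to 11 and 0 without 1 library of 2% RWC). Among those higher were 9 of 11 of HSF A-3 (2 without any 1 of those libraries) and 5 of 10 of HSF A-2. Against 60% RWC, 5 of 11 HSF A-3 contigs were higher and 0 lower, and 0 of 10 HSF A-2 contigs were higher and 6 lower. HSF A-2 took on average 0.0142% of reads at 2% RWC and 0.088% at 60% RWC. The HSF A-3 contig Cp_V2_contig_35914 (chosen after its values were seen) stood at 43.3, 42.3 and 39.1 RPKM, against 1.07, 3.8 and 0.28 RPKM in fresh leaves (log2 fold 4.82, SE 0.71) and 1.32 RPKM on average at 60% RWC. Among ethylene-responsive and DREB factors 30 of 170 were higher and 66 lower. Of 11 contigs of dehydration-responsive element-binding (DREB) proteins, which switch on drought genes, 7 were higher and 2 lower. The DREB 2A contig Cp_V2_contig_45146 (chosen after its values were seen) stood at 200, 201 and 183 RPKM, against 5.89, 26 and 4.3 RPKM in fresh leaves (log2 fold 4.28, SE 0.66) and 37.7 RPKM on average at 60% RWC. RAP2-1 (Cp_V2_contig_26531) stood at 547, 474 and 480 RPKM, against 4.17, 13.7 and 3.56 RPKM (log2 fold 6.39, SE 0.57, and 7.16 without fresh replicate 2), while of 42 RAP2-type contigs in all 3 were higher and 25 lower.

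Among WRKY factors, regulators of defence and stress, 10 of 115 were higher (21 without fresh replicate 1 and 4 without any 1 library of 2% RWC) and 57 lower. All 11 WRKY 70 contigs were lower, median log2 fold -4.40, and the most abundant (Cp_V2_contig_5598, chosen after its values were seen) stood at 22.4, 22.8 and 17 RPKM, against 281, 176 and 184 RPKM in fresh leaves. WRKY 53 was lower in all 6 contigs, but in 3 without fresh replicate 1 and in 1 without any 1 library of 2% RWC. WRKY 3 and 4 had 6 higher and 1 lower of 11, among them WRKY 3 contig Cp_V2_contig_12398, at 49.4, 45.3 and 48.6 RPKM against 9.12, 6.29 and 5.6 RPKM (log2 fold 2.94, SE 0.30). Of 94 NAC factors 26 were higher (11 to 14 without 1 library of 2% RWC) and 21 lower (13 without 2% replicate 2). NAC 72, a drought factor, rested on the fresh libraries: 2 of 10 contigs were higher, 9 without fresh replicate 1 and 0 without 2% replicate 1 or 3. Its most abundant contig (Cp_V2_contig_3794) stood at 429, 408 and 414 RPKM, against 290, 25.1 and 18.6 RPKM in fresh leaves. Each 2% library was above every fresh library, yet the contig was not called (log2 fold 1.98, SE 1.07), and was called without fresh replicate 1 (log2 fold 4.57) and with voom weights. Of 148 bHLH factors 16 were higher and 89 lower, and of 167 MYB factors 32 and 69. The class E bHLH 22-like contig Cp_V2_contig_702 stood out by its level, at 799, 739 and 770 RPKM against 146, 166 and 258 RPKM in fresh leaves (log2 fold 2.21, SE 0.28).

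**Figure D5:**
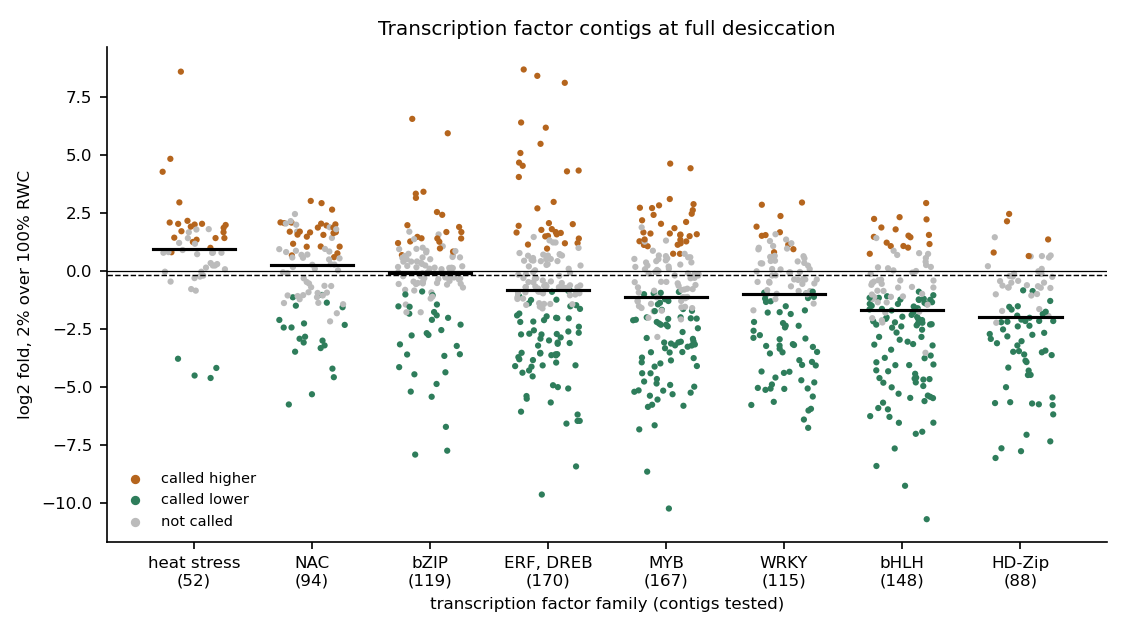
Log2 fold of 2% over 100% RWC (y axis) for each tested contig of 8 transcription factor families (number tested in brackets), coloured by call, with the family median as a bar, the median of all contigs (-0.18) as a dashed line and zero as a solid line. The heat stress and NAC medians (0.94 and 0.26) lie above zero, and the bHLH and HD-Zip medians (-1.69 and -1.99) lie lowest.

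Evening and morning clock transcripts differed in how firmly they could be compared. Of 71 clock contigs 30 were higher and 3 lower, median log2 fold 1.05 (1.66 without fresh replicate 2), and the lower count was 7 without fresh replicate 1, 18 without fresh replicate 2 and 1 without 2% replicate 1 or 2. REVEILLE 6, a clock-linked MYB factor, was higher in 10 of 11 contigs, median 3.71, and its contig Cp_V2_contig_18089 stood at 66.1, 69.9 and 73 RPKM, against 3.58, 0.761 and 5.5 RPKM in fresh leaves (log2 fold 4.57, SE 0.67, and 5.21 without fresh replicate 3) and 1.42 RPKM on average at 60% RWC. EARLY FLOWERING 3, part of the evening complex, was higher in 7 of 10. The pseudo-response regulator APRR5 was higher in 4 of 12, and in 11 of 12 without fresh replicate 2. Of 17 contigs of REVEILLE 1, 2, 7 and 8 and of the morning factors LHY and CCA1 none were called, and 15 were lower without fresh replicate 2. The LHY/CCA1-like contig Cp_V2_contig_330 stood at 48.4, 47.9 and 44.4 RPKM at 2% RWC, against 378, 16.3 and 624 RPKM in fresh leaves. The 2% libraries thus lay between fresh replicate 2 and the other fresh libraries, and the contig was called lower without fresh replicate 2 (log2 fold -3.25), with DESeq2 and in the fit of all 12 libraries. The time of day at which leaves were taken is not given in the sources used here, so time of day and state cannot be told apart.

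Chaperone lists held few calls. Of 164 contigs of HSP70, HSP90, HSP100 and related chaperones 13 were higher (7 or 8 without 1 library of 2% RWC) and 32 lower, but 42 were higher without fresh replicate 1 and 36 without fresh replicate 2, and 15 to 17 were lower without 1 library of 2% RWC. Of 19 small heat shock proteins 1 was higher and 2 lower, with 9 higher without fresh replicate 1 and 4 lower without fresh replicate 2. A heat shock cognate 70 contig (Cp_V2_contig_458), at the highest level in that list, stood at 1680, 1760 and 1780 RPKM, against 1900, 1580 and 1260 RPKM in fresh leaves, and was not called. The luminal-binding protein 5 contig Cp_V2_contig_39236, a chaperone of the endoplasmic reticulum, was higher, at 190, 191 and 273 RPKM against 3.89, 3.38 and 2.57 RPKM (log2 fold 6.24, SE 0.36).

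Water channels were lower. Of 35 aquaporin contigs 1 was higher and 23 lower, median log2 fold -2.89 (-2.19 without fresh replicate 3, and -2.86 with 3 contigs at their bound): 10 of 12 plasma membrane aquaporins, 7 of 10 tonoplast ones and 4 of 8 of the NIP type (7 without fresh replicate 2) were lower and none of these was higher. The PIPB contig of the species Cp_V2_contig_580 (chosen after its values were seen) stood at 9.26, 7.57 and 7.86 RPKM, against 247, 162 and 512 RPKM in fresh leaves (log2 fold -5.05, SE 0.53) and 41.6 RPKM on average at 60% RWC. The states did not overlap. The gamma-tonoplast intrinsic protein 3 (Cp_V2_contig_1109) was not called, at 476, 677 and 276 RPKM against 591, 381 and 517 RPKM in fresh leaves, although it had stood at 12400 RPKM on average at 60% RWC. Tonoplast aquaporins together took 0.0468, 0.0671 and 0.0264% of reads in the 2% libraries, against 0.092, 0.0761 and 0.0723% in the fresh libraries and 1.24 ± 0.0244% at 60% RWC.

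Cell wall and growth transcripts reached some of the lowest levels. Expansins loosen walls during growth, and 0 of 23 contigs were higher and 22 lower, median log2 fold -7.55 (-8.79 without 2% replicate 1, -6.70 without 2% replicate 2, and -6.99 with 2 contigs at their bound). The expansin A10 contig Cp_V2_contig_9900, which matches expansin A2 of the species, was at 0 reads in every 2% library and at 42.1, 265 and 287 RPKM in fresh leaves, at least 504-fold lower. An expansin at a similar level (Cp_V2_contig_14072) stood at 0, 0.141 and 0 RPKM, against 26.9, 354 and 304 RPKM. Fresh replicate 1 was the lowest of the fresh libraries for both. Of 77 xyloglucan endotransglucosylases (XTH), which cut and rejoin wall polymers, 9 were higher and 47 lower. XTH 7 contig Cp_V2_contig_6709 was also at 0 reads in every 2% library, against 91, 5.83 and 177 RPKM in fresh leaves, at least 399-fold lower, whereas the XTH contig Cp_V2_contig_47839 stood at 150, 133 and 154 RPKM, against 0.541, 0.0695 and 0.159 RPKM in fresh leaves (log2 fold 9.24, SE 0.68, and 10.54 without fresh replicate 1). Of 69 cellulose synthases 3 were higher and 44 lower, and of 183 pectin-modifying enzymes 19 and 104. The pectinesterase 2.1-like contig Cp_V2_contig_149 stood at 2.05, 1.45 and 1.01 RPKM, against 618, 323 and 187 RPKM in fresh leaves (log2 fold -7.81, SE 0.68, and -7.07 without fresh replicate 1). Of 15 contigs of the species' wall-associated kinases 0 were higher and 10 lower, and of 1050 receptor-like kinases 84 (127 without fresh replicate 1) and 524.

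Growth hormone and surface lipid lists were lower too. Gibberellin proteins had 0 higher and 24 lower of 36, with all 12 tested gibberellin dioxygenases, which make and inactivate the hormone, and 9 of 12 DELLA proteins, its repressors, lower. The DELLA protein GAI1-like contig Cp_V2_contig_6797 stood at 1.09, 0.744 and 0.892 RPKM, against 16.1, 32.5 and 43.8 RPKM in fresh leaves (log2 fold -4.87, SE 0.42). Auxin genes had 32 higher and 105 lower of 200, and phenylpropanoid genes 22 (10 or 11 without 2% replicate 1 or 2) and 133 of 242. Of 82 lipoxygenase and jasmonate contigs 1 was higher and 51 lower (32 or 33 without 1 library of 2% RWC). Their share of reads was 0.0584, 0.0458 and 0.0427% in the 2% libraries, against 0.854, 0.28 and 0.186% in the fresh libraries, of which fresh replicate 1 was the highest. Wax and cutin contigs had 23 higher (12 without 2% replicate 1 or 2) and 128 lower of 200. ECERIFERUM 1 (Cp_V2_contig_17374), needed for wax alkanes in Arabidopsis, was not read at all in the 2% libraries, against 33.6, 29.3 and 30.5 RPKM in fresh leaves, at least 98.9-fold lower. A lipid-transfer protein 2-like contig (Cp_V2_contig_26781) ran the other way, at 726, 571 and 477 RPKM against 2.06, 1.96 and 1.16 RPKM (log2 fold 8.59, SE 0.40).

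Cell cycle contigs were called at shares near those over all contigs, and cytoskeleton contigs were more often lower than higher. Of 201 cyclin, replication and cell cycle contigs 52 were higher and 50 lower, with 27 to 33 lower without 1 library of 2% RWC. The shares were 25.9% higher and 24.9% lower, against 21.6% and 29.9% over all contigs tested. Among 264 tubulin, kinesin and actin contigs 28 were higher (18 without 2% replicate 2) and 123 lower. The actin contig Cp_V2_contig_4120, of the filaments on which organelles move, stood at 634, 674 and 606 RPKM at 2% RWC, against 283, 210 and 302 RPKM in fresh leaves (log2 fold 1.44, SE 0.27). The G2/mitotic-specific cyclin C13-1-like contig Cp_V2_contig_45582, a cyclin named for entry into division, stood at 22.4, 24.5 and 32 RPKM, against 0.221, 0.455 and 0.416 RPKM (log2 fold 6.38, SE 0.35). CDC48 (Cp_V2_contig_7240), an ATPase that extracts proteins for degradation, was higher as well, at 222, 222 and 246 RPKM against 86.3, 84.5 and 63.8 RPKM (log2 fold 1.75, SE 0.24).

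Lipid droplet proteins were higher in dry leaves. Oleosins and caleosins coat oil droplets. Of 36 contigs of droplet coats and oil synthesis 16 were higher and 6 lower, median log2 fold 0.71. Oleosins were higher in 4 of 5 contigs and lower in 1, peroxygenases (caleosins) higher in 5 of 5, and diacylglycerol O-acyltransferase 3, which makes triacylglycerol, higher in 5 of 8 (2 or 3 without 1 library of 2% RWC). Phospholipid:diacylglycerol acyltransferase, which also makes triacylglycerol, was lower in 4 of 6. The oleosin 1-like contig Cp_V2_contig_20784 stood at 1290, 1170 and 1180 RPKM, against 32.4, 14 and 34.5 RPKM in fresh leaves, and the peroxygenase-like contig Cp_V2_contig_773 (chosen after its values were seen) at 149, 175 and 99.4 RPKM, against 4.61, 1.96 and 1.73 RPKM. Phospholipase D, a membrane lipid enzyme of which this species has the forms D1 and D2, differed by form. All 4 D2 contigs were higher, with the most abundant (Cp_V2_contig_17105, chosen after its values were seen) at 79.5, 86.6 and 75.1 RPKM against 27.8, 31.2 and 41.9 RPKM in fresh leaves and 273 RPKM on average at 60% RWC. The D1 contig (Cp_V2_contig_7630) stood at 52.7, 56.7 and 53.2 RPKM, against 90.5, 92.1 and 97.1 RPKM in fresh leaves (log2 fold -0.59, SE 0.20). The adjusted p of D1 (Benjamini-Hochberg, edgeR's quasi-likelihood test) was 0.0439, and leaving out any 1 library of 2% RWC, or fresh replicate 1 or 3, ended the call, as did RLE size factors and testing without the filter on low counts.

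RNA-handling lists leaned to the higher side, and cytosolic ribosomal proteins to the lower. Of 250 splicing contigs 129 were higher and 15 lower (7 to 9 without 1 library of 2% RWC), median log2 fold 0.88, of 221 RNA helicases 109 and 14 (6 to 9 without fresh replicate 3 or any 1 library of 2% RWC), and of 260 translation factors 129 and 16 (10 without 2% replicate 1). All 10 contigs of splicing factor 3B, part of the U2 particle that recognises branch points, were higher, and subunit 1 (Cp_V2_contig_2348) stood at 255, 277 and 301 RPKM, against 43.8, 51.9 and 41.5 RPKM in fresh leaves (log2 fold 2.81, SE 0.22). The U2 small nuclear ribonucleoprotein A' (Cp_V2_contig_25861) stood at 77.8, 74.3 and 81.7 RPKM, against 1.15, 2.19 and 0.673 RPKM (log2 fold 6.07, SE 0.42). Initiation factors were higher in 91 of 166 contigs and lower in 11 (5 or 6 without 2% replicate 1 or 2), among them eIF6-2 (Cp_V2_contig_36150) of large ribosomal subunit assembly, at 43.4, 43.5 and 39.6 RPKM against 3.5, 4.86 and 2.39 RPKM (log2 fold 3.76, SE 0.29). Of 444 cytosolic ribosomal protein contigs 29 were higher and 172 lower, median -0.57. That higher count was 53 without fresh replicate 2 and 15 to 17 without 1 library of 2% RWC, and the lower count 74 to 91 without such a library.

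Protein breakdown lists ran in different directions. Of 129 proteasome contigs 44 were higher (25 to 27 without 1 library of 2% RWC) and 9 lower (3 to 5 without fresh replicate 2 or 1 library of 2% RWC), and of 81 autophagy contigs 34 and 9. Of 272 proteases 37 were higher and 141 lower, yet the list took 1.34 ± 0.0136% of reads at 2% RWC, against 0.692 ± 0.118% in fresh leaves (SD, n = 3 each). Cysteine proteinases, of the papain type, had 18 higher and 2 lower (4 without fresh replicate 1) of 34 and took 0.844, 0.827 and 0.862% of reads in the 2% libraries, against 0.129, 0.349 and 0.127% in the fresh libraries. The cysteine proteinase 15A-like contig Cp_V2_contig_3204 stood at 2670, 2630 and 2670 RPKM, against 302, 1140 and 371 RPKM (log2 fold 2.40, SE 0.48). Fresh replicate 2 was the highest of the fresh libraries, and the log2 fold without it was 3.14. Subtilisin-like proteases had 9 higher and 50 lower of 74, and serine carboxypeptidases 5 and 31 of 55.

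Among other abundant transcripts, metallothionein-like protein 2 (Cp_V2_contig_256), a small metal-binding protein, stood at 9170, 7790 and 8950 RPKM, against 2810, 2990 and 4010 RPKM in fresh leaves (log2 fold 1.59, SE 0.25). Of 129 metal-handling contigs 18 were higher and 70 lower. Among them, an isoprenylated metal-binding protein contig (Cp_V2_contig_47824) stood at 191, 181 and 200 RPKM and had 1 read in the fresh libraries, a ratio of 7570 (95% counting interval 1360 to 299000). A retrotransposon protein of the Ty1-copia type (Cp_V2_contig_4554), from a mobile element, stood at 505, 705 and 879 RPKM, against 2.89, 3.61 and 2.76 RPKM (log2 fold 8.03, SE 0.38). Of 527 retrotransposon contigs 89 were higher and 187 lower (120 without 2% replicate 1), while their share of reads was 1.19 ± 0.155% at 2% RWC and 0.455 ± 0.0601% in fresh leaves (SD, n = 3 each). The cysteine-rich rehydration-responsive 1 transcript of the species was lower in all 4 contigs, median -4.57 (-5.21 without 2% replicate 1). Its most abundant contig (Cp_V2_contig_1534, chosen after its values were seen) stood at 13.9, 4.3 and 6.92 RPKM at 2% RWC, against 133, 235 and 318 RPKM in fresh leaves and 5 RPKM on average at 60% RWC. Among the contigs at the highest levels in both states, the putative transmembrane protein Cp_V2_contig_17307 was not called, at 6930, 9930 and 17400 RPKM against 8640, 9610 and 12700 RPKM in fresh leaves. Of 6181 tested contigs without a description 1233 were higher and 1714 lower, beside 9580 and 13231 of all 44267 contigs tested.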

How the data were processed

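Leaf RNA of 4 states with 3 libraries each was sequenced as stranded 75 bp read pairs in 5 MiSeq runs, per the labels' protocols. Which assembler, mapper and strand setting the authors used is not stated in these sources. The deposited counts are total gene reads (whole numbers), which include reads matching several contigs. A second set of deposited counts holds unique gene reads (98.55 to 98.71% of the total in the 6 libraries). The RPKM values, and the authors' mean RPKM per state, were made by the authors, per the file headers, and were recomputed from the counts within a relative difference of 1.56e-08.

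Total gene reads of the 6 libraries were tested with edgeR 4.0.16 in R 4.3.3: TMM scaling, filterByExpr by state (minimum count 10, minimum total 15), which left 44267 of 48045 contigs, and robust quasi-likelihood fits. Calls are two-sided at a Benjamini-Hochberg adjusted p below 0.05, with no fold threshold. The SE is the absolute log2 fold divided by the square root of F. The comparison with 60% RWC used a fit of all 12 libraries (46494 contigs). The p-values measure the spread between leaf pools. Alternatives were RLE size factors, no filter, DESeq2 1.42.0, all 12 libraries, unique reads, limma 3.58.1 (voom, weights per state), a replicate block and leaving out each library.

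The 75 lists were made by words in the descriptions, and families by words in the description or best hit, so they can share contigs. Members, lists and tests were chosen with earlier results of these data known, and families and some contigs after their values were seen. Named contigs were the 10 highest and 10 lowest log2 folds among called, described contigs without overlap in the upper 50% by mean CPM (only the first contig of a description), the most abundant and the highest and lowest called member of each list, the 10 most abundant called contigs naming the species, and the 10 highest RPKM of each state. Other contigs are said to be chosen after their values were seen. No genome, coordinates or sequences were used.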

Additional observations from a re-analysis of the deposited data

How the results depend on the processing

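The 4 counts of called contigs stayed within 1.5 times their value in every alternative tried. Against fresh leaves, the alternatives that keep all 6 libraries gave 8661 to 12070 higher contigs and 11645 to 16240 lower ones. Leaving out 1 library gave 6597 to 11338 higher and 9389 to 13715 lower, fewest without a 2% library. Against 60% RWC, leaving out 1 library gave 7060 to 7565 higher and 9362 to 9728 lower, and a fit of only those 6 libraries 13523 and 14104. RLE size factors moved the median log2 fold of all contigs to -0.16, against -0.18. Of 207 named contigs called, 180 were called in all 13 alternatives and 196 in all that keep the 6 libraries. The MYB48-like contig Cp_V2_contig_4427, not called (log2 fold -0.11), ranged from -0.41 without RWC100 replicate 2 to 0.93 without RWC100 replicate 3. Without RWC100 replicate 3 it was called higher, the only reversal among the named contigs, and the cause was not tested. The median log2 fold of 13 of 158 lists and families changed sign in some alternative.

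Deviations of same-numbered libraries from the means of their states correlated at 0.0663, -0.0145 and 0.0852. Those of libraries with unlike numbers correlated at -0.0978 to 0.0474. With 3 libraries per state, these values cannot decide whether replicate numbers pair the samples. With a replicate block 8661 contigs were higher and 11645 lower than in fresh leaves, with 86.2 and 86.8% of the calls kept, and 8753 higher and 11334 lower than at 60% RWC. Of the list and family counts in the report, those the block moved by over 1.5 times were the higher counts of large chaperones (25), cytosolic ribosomal proteins (18), proteasome (29), mesophyll markers (1), CPHB-6 (1), NAC 72 (7), stachyose synthase (5) and diacylglycerol O-acyltransferase 3 (3), and the lower counts of proteasome (5), phospholipase D1 (0) and WRKY 3 and 4 (0). The block called Cp_V2_contig_3837 and Cp_V2_contig_3794 higher and ended the call of Cp_V2_contig_7630.

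Each state has 3 pools, and the fresh pools differ from each other far more than the dry ones, so moderate changes are the least certain. A count of 0 in a library allows up to 3 reads there (0.141 to 0.203 CPM).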
